A study of Mus musculus with 12 samples.

Results

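The genes described here are the 4 adenosine receptors and 6 genes that make, break down or carry adenosine. They were picked by name as members of the pathway, with earlier results of these data known: Adora1, Adora2a, Adora2b and Adora3, the cell-surface enzymes Entpd1 (CD39) and Nt5e (CD73), the intracellular enzymes Ada and Adk, and the transporters Slc29a1 (ENT1) and Slc29a2 (ENT2). All 10 matched a single row each among the 55416 genes of the table, and 9 reached the mean value of 1 needed for testing. Cultured cardiomyocytes of newborn mice gave 12 libraries of polyadenylated RNA, 3 per group. The 4 groups received phenylephrine (PE) with a lincRNA-p21 GapmeR, PE with a negative-control GapmeR, PBS with the lincRNA-p21 GapmeR, or PBS with the negative-control GapmeR. PE is an alpha1-adrenergic agonist used to make cardiomyocytes grow, and it was given for 24 hours. A GapmeR is a short antisense oligonucleotide through which RNase H cuts the matching RNA, and all 4 groups received one. The labels state no strain, sex, PE dose or GapmeR sequence, and do not say whether libraries came from separate cultures or animals. The p-values therefore measure only the spread between these libraries, which may be technical.

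Adenosine is formed outside cells from released ATP and ADP, which CD39 converts to AMP and CD73 converts to adenosine. Adora1 and Adora3 encode receptors that lower cyclic AMP through Gi, and Adora2a and Adora2b encode receptors that raise it through Gs. In the heart adenosine slows conduction and dilates coronary vessels, and it is removed by uptake through ENT1 and ENT2 followed by phosphorylation to AMP by adenosine kinase or deamination to inosine by adenosine deaminase.

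Values are normalised read counts, which the authors scaled by a size factor for each library. Libraries held 21325485 to 22139681 reads in genes. The lincRNA-p21 gene Trp53cor1 averaged 9.16 ± 0.728 in PE with the lincRNA-p21 GapmeR and 41.6 ± 12.5 in PE with the control GapmeR, and 15.1 ± 6.60 against 64.5 ± 5.5 in PBS (SD, n = 3 each). All 8 cardiomyocyte markers were present in every group, with summed values of 516440 to 1145900 per library, and so were all 8 fibroblast, 8 endothelial and 10 leukocyte markers. In these bulk libraries, fewer cells of a type and less RNA per cell cannot be told apart. Libraries that stood apart from the others of their group were replicate 1 of PE with the lincRNA-p21 GapmeR, replicate 2 of PBS with the lincRNA-p21 GapmeR and replicate 2 of PBS with the control GapmeR. Their chi-square per degree of freedom against the other replicates was 22.1 to 53.5, against 2.42 to 23.0 in the other 6 pairs. Every call on an adenosine gene given below was also made without these 3 libraries, and calls that appeared when they were left out are named beside their genes.

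Levels can be compared between genes only per length, so each value was divided by the summed exon length in kb. In PE with the control GapmeR, Adora1 stood highest at 349 ± 15.2 per kb, followed by Adk at 223 ± 12.8, Nt5e at 173 ± 4.68, Slc29a2 at 163 ± 3.00 and Slc29a1 at 159 ± 10.1 (SD, n = 3). Below these came Ada at 55.0 ± 7.0, Adora2b at 43.3 ± 8.42, Entpd1 at 28.4 ± 4.01, Adora2a at 12.1 ± 5.27 and Adora3 at 0.290 ± 0.291 per kb. Between neighbours in this order, the library values of Slc29a2 and Slc29a1, and those of Ada and Adora2b, overlapped.

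The order was different in PBS with the control GapmeR, where Slc29a1 led at 228 ± 16.9 per kb, ahead of Adk at 212 ± 21.2, Slc29a2 at 167 ± 3.43, Adora1 at 120.2 ± 14.9 and Nt5e at 102 ± 3.22 (SD, n = 3). The lower levels were 47.5 ± 5.59 for Ada, 20.9 ± 5.82 for Adora2b, 10.9 ± 1.71 for Adora2a, 10.1 ± 2.44 for Entpd1 and 0.176 ± 0.153 for Adora3. Here the libraries of Slc29a1 and Adk overlapped, as did those of Adora2a and Entpd1. With the lincRNA-p21 GapmeR, Adk stood at 101 ± 18.4 per kb in PE and at 128 ± 20.7 per kb in PBS (SD, n = 3 each), below both transporters in each.

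Among the receptors, Adora1 held most of the receptor signal per kb in every library. Its share averaged 88.4% ± 3.41 in PE with the lincRNA-p21 GapmeR, 86.2% ± 0.647 in PE with the control GapmeR, 77.4% ± 1.57 in PBS with the lincRNA-p21 GapmeR and 78.8% ± 4.13 in PBS with the control GapmeR (SD, n = 3 each). Among all tested genes ranked by level per kb, Adora1 stood at percentile 86.6 in PE and percentile 70.2 in PBS with the control GapmeR.

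**Figure D1:**
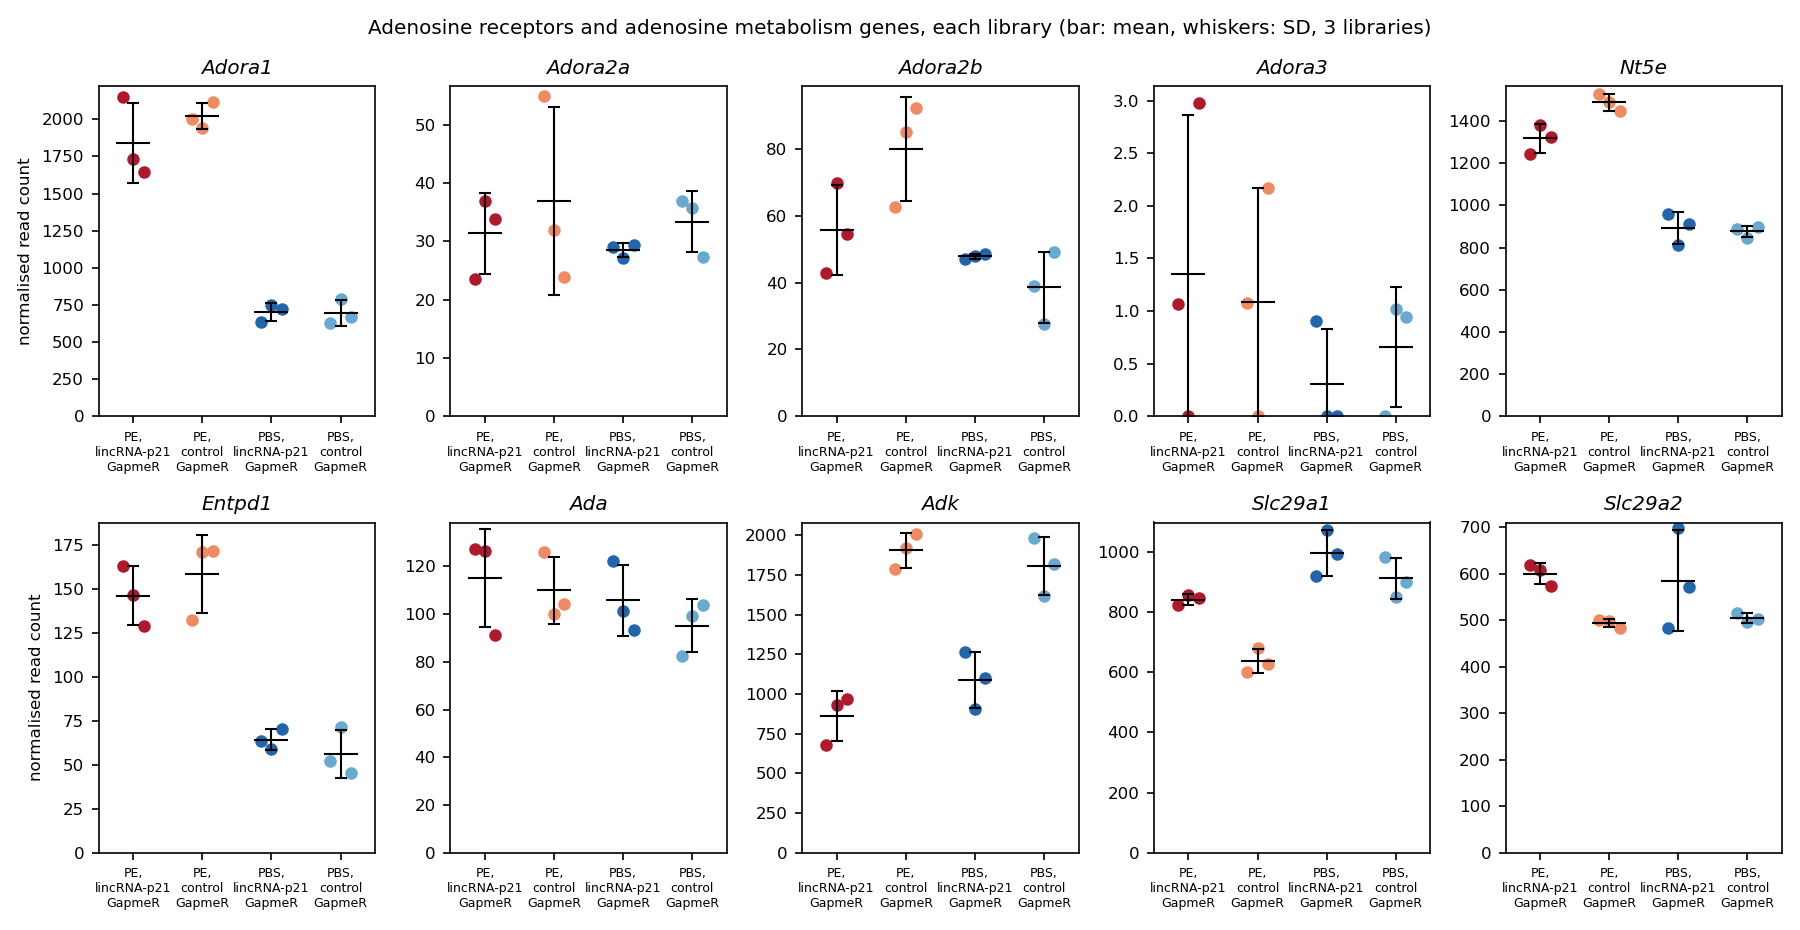
Normalised read count (vertical axes, from 0) of the 10 genes in each of 12 libraries, by group; points are libraries, horizontal bars the mean and whiskers the SD of 3 libraries. Adora1, Nt5e and Entpd1 lay higher in both PE groups, and Adk lay lower in each lincRNA-p21 GapmeR group.

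The comparison of PE with PBS under the control GapmeR asks how the hypertrophic stimulus alone was reflected in these genes. PE raised Adora1, Adora2b, Nt5e and Entpd1 and lowered Slc29a1, by limma with Benjamini-Hochberg adjustment over 21799 genes at 0.05. Thus 4 of the 9 tested genes were called higher and 1 lower, beside 12.6% of all genes tested called higher, 12.8% called lower and 25.4% called in either direction. The median log2 change was 0.21 over the 9 genes and -0.0046 over all genes. All 5 called genes had library values that did not overlap between PE and PBS, which was also true of 41.7% of all genes tested.

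Adora1 (ENSMUSG00000042429.9) lies at chr1:134199223-134235431 on the minus strand of GRCm38. Its normalised read count was 1999, 1944 and 2116 in PE and 627, 792 and 666 in PBS with the control GapmeR. Every PE library was above every PBS library, and the log2 change was 1.54 ± 0.12 (SE, limma adjusted p = 7.0e-09). With the lincRNA-p21 GapmeR it was 2147, 1730.4 and 1644 in PE and 636, 750.2 and 721 in PBS. The groups again did not overlap, as for 38.7% of all genes tested, with a log2 change of 1.38 ± 0.12 (SE, limma adjusted p = 3.8e-08). The gene shares 20.1% of its exon bases with Mybph on the opposite strand, and strand use in counting is not given in the sources used here. Mybph itself averaged 9.13 over the 12 libraries, against 1315 for Adora1. With the control GapmeR, Mybph averaged 16.2 ± 6.86 in PE and 2.92 ± 1.90 in PBS (SD, n = 3 each). It was called higher there, with a log2 change of 2.19 ± 0.50 (SE, limma adjusted p = 0.0025). With the lincRNA-p21 GapmeR it averaged 10.8 in PE and 6.67 in PBS and was not called.

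Adora2b (ENSMUSG00000018500.3), on the plus strand at chr11:62248984-62266453, was a low-count receptor. It had 62.5, 85.0 and 92.3 normalised reads in PE and 38.9, 27.6 and 49.1 in PBS with the control GapmeR. The lowest PE library exceeded the highest PBS library, and the log2 change was 1.05 ± 0.24 (SE, limma adjusted p = 0.0026). With the lincRNA-p21 GapmeR it had 42.8, 69.8 and 54.6 in PE and 47.1, 47.9 and 48.6 in PBS. These groups overlapped, and the log2 change was 0.19 ± 0.24 (SE, limma adjusted p = 0.62). The difference between both PE responses was -0.86, with a 95% interval of -1.57 to -0.16, and was not called (limma adjusted p = 0.41).

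Adora2a (ENSMUSG00000020178.7), at chr10:75316877-75334784 on the plus strand, had 54.9, 31.9 and 23.9 normalised reads in PE and 37.0, 35.8 and 27.4 in PBS with the control GapmeR. The groups overlapped, and the 95% interval of the log2 change ran from -0.52 to 0.66. In the lincRNA-p21 GapmeR libraries it ran between 23.5 and 36.9 in PE and between 27.1 and 29.3 in PBS. Behind these values were 22 to 51 reads per library, and a PE change within the interval of -0.52 to 0.66 is not excluded.

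Adora3 (ENSMUSG00000000562.6), at chr3:105870858-105908926 on the plus strand, had 0 to 3 reads per library. In PE its normalised read count was 1.07, 0 and 2.98 with the lincRNA-p21 GapmeR and 1.08, 0 and 2.17 with the control GapmeR. In PBS it was 0.907, 0 and 0 with the lincRNA-p21 GapmeR and 0, 1.02 and 0.944 with the control GapmeR, so each group held a library at 0. Its mean of 0.848 was below the minimum, and it was not tested. It also shares 20.9% of its exon bases with Tmigd3 on the same strand, so even these few reads are uncertain.

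Nt5e (ENSMUSG00000032420.9), which encodes the CD73 enzyme that makes adenosine from AMP, lies at chr9:88327197-88372092 on the plus strand. It had 1529.7, 1491 and 1449 normalised reads in PE and 886, 846 and 899 in PBS with the control GapmeR. PE libraries were higher without overlap, and the log2 change was 0.76 ± 0.09 (SE, limma adjusted p = 4.1e-06). The step before it, Entpd1 (ENSMUSG00000048120.17; chr19:40612366-40741602, plus strand), had 132, 171 and 172 in PE and 52.2, 71.6 and 45.3 in PBS. All 3 PE libraries were again above the PBS libraries, with a log2 change of 1.49 ± 0.19 (SE, limma adjusted p = 5.6e-06). The ratio of Nt5e to Entpd1 per kb averaged 6.21 ± 1.11 in PE and 10.5 ± 2.64 in PBS with the control GapmeR (SD, n = 3 each).

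The equilibrative transporter Slc29a1 (ENSMUSG00000023942.16; chr17:45585200-45599606, minus strand) moved the other way. It had 602, 681 and 627 normalised reads in PE and 985, 851 and 901 in PBS with the control GapmeR. Each PE library was below each PBS library, and the log2 change was -0.52 ± 0.10 (SE, limma adjusted p = 0.00054). An antisense gene, Gm17080, overlaps 6.86% of its exon bases and averaged 1.30, against 847 for Slc29a1. Slc29a2 (ENSMUSG00000024891.7; chr19:5023860-5031972, plus strand) had 499.8, 497 and 483 in PE and 516, 496 and 502 in PBS. These overlapped, with a log2 change of -0.03 and a 95% interval of -0.28 to 0.21. The ratio of Slc29a1 to Slc29a2 per kb averaged 0.972 ± 0.0623 in PE and 1.36 ± 0.0729 in PBS with the control GapmeR (SD, n = 3 each).

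Neither intracellular enzyme was called in this comparison. Ada (ENSMUSG00000017697.4; chr2:163726584-163750239, minus strand) had 126, 99.9 and 104 normalised reads in PE and 82.5, 99.2 and 104 in PBS with the control GapmeR, with overlap and a log2 change of 0.21 (95% interval -0.17 to 0.58). Adk (ENSMUSG00000039197.11; chr14:21052574-21448569, plus strand) had 1788, 1917 and 2006 in PE and 1981, 1619.7 and 1817 in PBS, also with overlap. Its log2 change was 0.08 (95% interval -0.20 to 0.36).

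The deposited scaling bears on the size of these values. Rescaling the libraries to the same total moved the median log2 change of all genes with a mean of at least 50 to -0.15, against 0.01 as deposited. On that scale the changes were 1.38 for Adora1, 0.90 for Adora2b, 0.61 for Nt5e, 1.33 for Entpd1 and -0.68 for Slc29a1, and all 5 were still called.

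**Figure D2:**
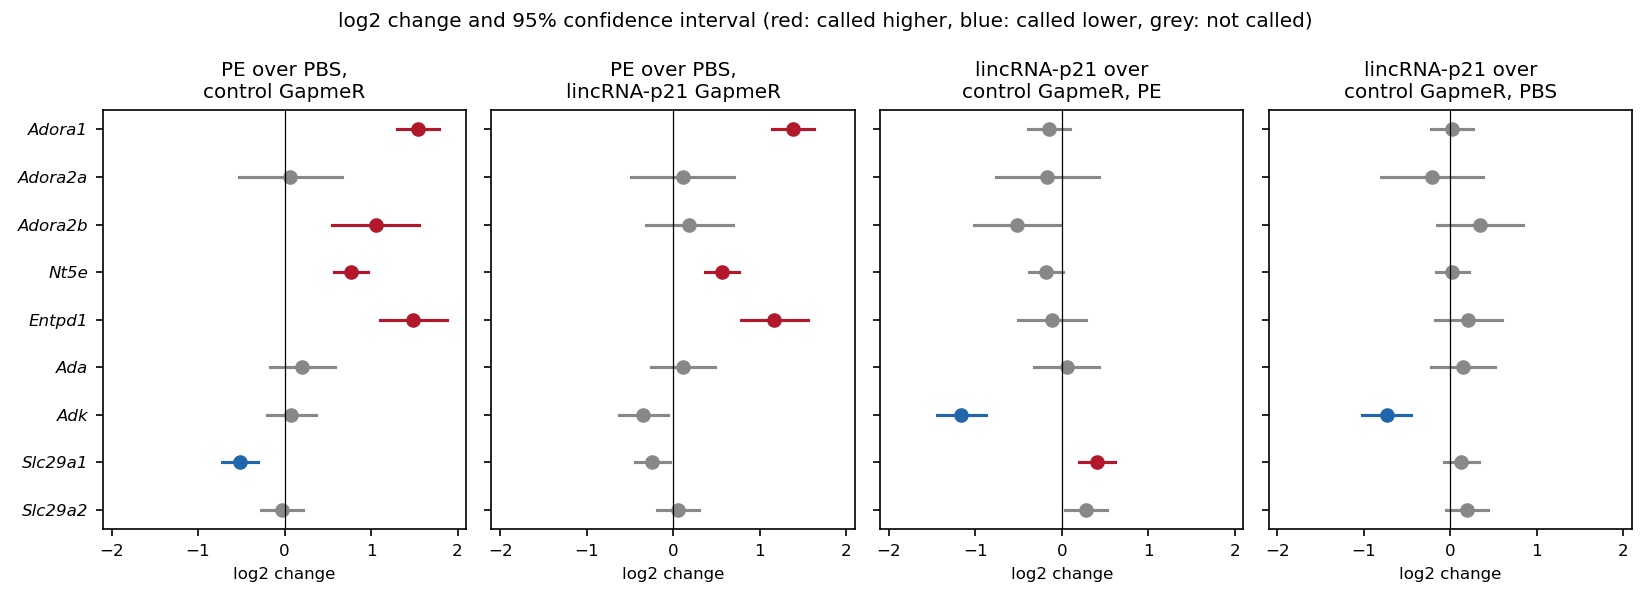
Log2 change (horizontal axes) with its 95% confidence interval for the 9 tested genes in 4 comparisons, from the limma fit to 12 libraries; red marks genes called higher, blue called lower and grey not called. PE changes of 1.54 for Adora1 and 1.49 for Entpd1 are the largest under the control GapmeR, and Adk is lower with the lincRNA-p21 GapmeR in PE and in PBS.

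The upstream sequences of Adora1, Adora2b and Entpd1 are shown because these genes rose with PE and their RefSeq start sites lie within 26 bases of the annotated gene start. Each is the 250 bases before the start site, 5′ to 3′ on the gene's strand, from RefSeq on GRCm38.p6, at chr1:134235458-134235707 (minus), chr11:62248734-62248983 (plus) and chr19:40612116-40612365 (plus). Capitals mark matches on either strand to an AP-1 site (TGANTCA), a CRE half-site (TGACG) or a hypoxia response element core (ACGTG).
Adora1: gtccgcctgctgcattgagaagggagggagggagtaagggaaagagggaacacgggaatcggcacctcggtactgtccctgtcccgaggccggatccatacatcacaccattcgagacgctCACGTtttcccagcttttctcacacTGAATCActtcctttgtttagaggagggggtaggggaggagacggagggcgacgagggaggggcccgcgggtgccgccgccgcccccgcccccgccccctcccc
Adora2b: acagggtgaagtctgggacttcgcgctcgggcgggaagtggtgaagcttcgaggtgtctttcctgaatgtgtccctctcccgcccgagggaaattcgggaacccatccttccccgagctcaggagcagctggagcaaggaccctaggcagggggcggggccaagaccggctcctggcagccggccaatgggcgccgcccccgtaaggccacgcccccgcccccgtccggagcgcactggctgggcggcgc
Entpd1: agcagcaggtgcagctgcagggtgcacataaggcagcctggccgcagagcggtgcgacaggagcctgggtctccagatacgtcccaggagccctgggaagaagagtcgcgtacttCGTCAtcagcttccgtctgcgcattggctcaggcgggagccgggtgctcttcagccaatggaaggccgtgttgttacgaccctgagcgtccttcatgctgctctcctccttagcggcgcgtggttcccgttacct

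The Adora1 window held 1 AP-1 match, 104 bases before the start site, and 1 match to the hypoxia response element core, 129 bases before it. The Entpd1 window held 1 CRE half-site, 135 bases before the start site, and the Adora2b window held none of these motifs. Among 32817 windows of the same length, 6.75% held the AP-1 site, 17.7% the CRE half-site and 16.6% the hypoxia response element core. Windows were found for 9 of the 10 genes, and a match is a match of letters only. The Adora3 window also held an AP-1 match and the Adk window a CRE half-site, while that of Nt5e held none of these motifs. The NFAT core (GGAAA), not marked above, was in 55.6% of windows. It had 2 matches each in Adora1 and Adora2b, 3 in Slc29a1, 1 each in Adora3, Ada and Adk, and 0 in Nt5e, Entpd1 and Slc29a2.

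Markers of other cell types moved in the same comparison. Of 8 endothelial markers, 7 were called higher and 1 lower with PE under the control GapmeR. They included Emcn at 1.84 ± 0.15 and Cdh5 at 1.74 ± 0.13 (log2 change, SE), against 1.54 for Adora1. Their summed level was 5606 to 6130 per library in PE and 2177 to 2377 in PBS with the control GapmeR, and 4724 to 5733 in PE and 2161 to 2186 in PBS with the lincRNA-p21 GapmeR. Of 10 leukocyte markers, 7 were called higher, led by C1qc at 3.15 ± 0.26 and Fcgr1 at 3.01 ± 0.41. Not all moved this way: Ptprc averaged 67.8 ± 19.3 in PE and 66.6 ± 13.4 in PBS, and Cd68 1086 ± 121 and 1176 ± 333 (SD, n = 3 each). The sum of the 10 leukocyte markers was 3442 to 3985 in PE and 2517 to 3161 in PBS with the control GapmeR. With the lincRNA-p21 GapmeR it was 3258 to 3859.9 in PE and 2435 to 2605 in PBS. No endothelial or leukocyte marker was at 0 in any group. Of 8 fibroblast markers, 6 were called lower with PE under the control GapmeR, with sums of 36058 to 39824 in PE and 61575 to 68062 in PBS. Cardiomyocyte markers had 2 of 8 higher and 1 lower, with sums of 850570 to 1145900 in PE and 636370 to 738210 in PBS. Among them Myh6 averaged 604630 in PE and 323170 in PBS and Pln 5471.5 and 12041, and the list median log2 change was 0.07. Smooth muscle and pericyte markers had 2 of 7 higher and 4 lower, with sums of 8383 to 9483 in PE and 7081 to 7398 in PBS. Here Cspg4 averaged 5944 in PE and 2714 in PBS and Pdgfrb 1564 and 2722, and the list median log2 change was -0.80. Epicardial sums were 5203 to 5400.3 in PE and 5619.8 to 5961 in PBS. All these counts stand beside 12.6% of all genes called higher and 12.8% called lower. The part of these cell types in the changes of Adora1, Adora2b, Nt5e, Entpd1 and Slc29a1 was not tested.

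**Figure D3:**
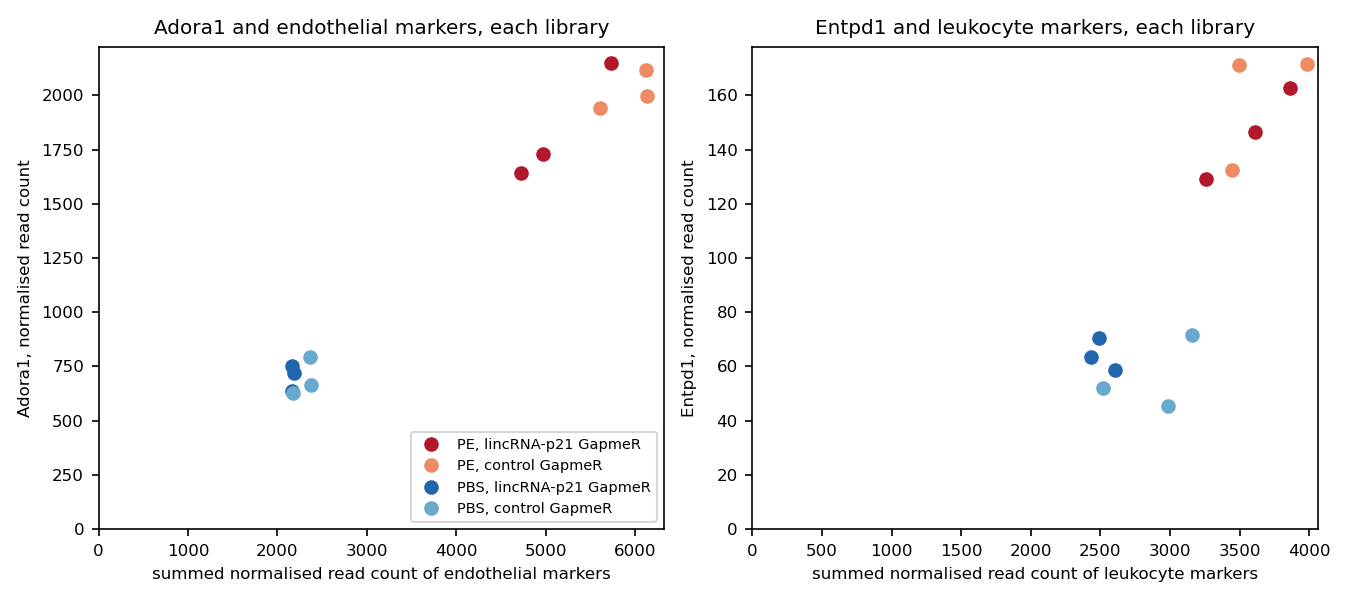
Normalised read count of Adora1 against the summed endothelial markers (left) and of Entpd1 against the summed leukocyte markers (right), all axes from 0; each point is 1 of 12 libraries, coloured by group. PE libraries lie at the upper right in both panels, with endothelial sums of 4724 to 6130 against 2161 to 2377 in PBS.

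By Pearson correlation of log2 values over the 12 libraries, the genes most like Adora1 among 11506 searched were Ablim3, an actin-binding protein (r = 0.996), and Cdh5, the endothelial cadherin (r = 0.996). Those most like Entpd1 were Rcan1, a calcineurin regulator (r = 0.984), and C1qb, a complement subunit made by macrophages (r = 0.984). Nt5e was closest to Grk5, a G protein-coupled receptor kinase (r = 0.988), and Tent5b (r = 0.985). For Adora2b the closest were Snx25 (r = 0.939) and Nudt18 (r = 0.915), and for Slc29a1 AU020206 (r = 0.959) and Idnk (r = 0.959). These values describe libraries that share 4 groups and were given no test.

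With the lincRNA-p21 GapmeR in all libraries compared, PE raised Adora1, Nt5e and Entpd1, which made 3 of 9 tested genes called higher and 0 called lower, beside 13.4% of all genes called higher, 14% called lower and 27.4% called in either direction. By edgeR or DESeq2 on recovered reads the count was also 3, and 5 of the 9 genes had an unadjusted p under 0.05. Nt5e had 1244, 1382 and 1326 normalised reads in PE and 957, 811 and 913 in PBS. PE was higher in every library, by 0.56 ± 0.09 (log2, SE, limma adjusted p = 0.00013). Entpd1 had 163, 147 and 129 in PE and 63.5, 58.7 and 70.6 in PBS. These groups did not overlap either, beside 38.7% of all genes tested, with a log2 change of 1.17 ± 0.19 (SE, limma adjusted p = 8.4e-05).

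Slc29a1 and Adk were not called in this comparison. Slc29a1 had 823, 856 and 847 normalised reads in PE and 922, 1075 and 993 in PBS, and its groups did not overlap, which held for 38.7% of all genes. Its log2 change was -0.24 ± 0.10 (SE, limma adjusted p = 0.079). Adk had 679, 928 and 969 in PE and 1261, 908 and 1098 in PBS, with overlap and a log2 change of -0.35 ± 0.14 (SE, limma adjusted p = 0.064). Both were called on values rescaled to the same total, at -0.38 (limma adjusted p = 0.011) for Slc29a1 and -0.49 (limma adjusted p = 0.017) for Adk. Slc29a1 was also called without replicate 1 of PBS with the lincRNA-p21 GapmeR, at -0.29 (limma adjusted p = 0.048). Adk was called at -0.31 (limma adjusted p = 0.0083) without the 3 libraries that stood apart, at -0.44 (limma adjusted p = 0.037) without replicate 3 of PE with the lincRNA-p21 GapmeR, and at -0.47 (limma adjusted p = 0.00991) without replicate 2 of PBS with the lincRNA-p21 GapmeR. Ada had 127, 127 and 91.3 in PE and 122, 101 and 93.5 in PBS, and Slc29a2 had 618, 608 and 574 in PE and 482, 699 and 572 in PBS, both with overlap.

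The comparison of the GapmeRs asks how these genes differed with the lincRNA-p21 GapmeR. Loss of lincRNA-p21 and other effects of this GapmeR cannot be told apart in this design. In PE, Adk RNA was lower and Slc29a1 RNA was higher with the lincRNA-p21 GapmeR, and in PBS Adk RNA was lower. In PE this was 1 of 9 tested genes lower and 1 higher, beside 7.14% of all genes called lower, 4.57% called higher and 11.7% called in either direction. In PBS it was 1 of 9 lower and 0 higher, beside 3.21% of all genes called lower, 1.36% called higher and 4.57% called in either direction, and the same 1 of 9 had an unadjusted p under 0.05 and was called by edgeR and DESeq2. Both comparisons share their lincRNA-p21 and control libraries with the PE comparisons above.

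Adk, the enzyme that returns adenosine to AMP, had 679, 928 and 969 normalised reads with the lincRNA-p21 GapmeR and 1788, 1917 and 2006 with the control GapmeR in PE. Its highest knockdown library lay below its lowest control library, and groups also did not overlap for 30.5% of all genes tested. The mean was 54.9% lower, with a log2 change of -1.16 ± 0.14 (SE, limma adjusted p = 6.9e-06). In PBS it had 1261, 908 and 1098 with the lincRNA-p21 GapmeR and 1981, 1619.7 and 1817 with the control GapmeR. These again did not overlap, as for 22% of all genes tested. There the mean was 39.7% lower, with a log2 change of -0.74 ± 0.14 (SE, limma adjusted p = 0.0026). The difference between PE and PBS in this effect was -0.43 (95% interval -0.83 to -0.03) and was not called (limma adjusted p = 0.48).

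Ada, the other enzyme that removes adenosine, was not called with the lincRNA-p21 GapmeR. Its log2 change was 0.06 (95% interval -0.32 to 0.43) in PE and 0.15 (95% interval -0.22 to 0.52) in PBS. The ratio of Adk to Ada per kb averaged 1.82 ± 0.626 with the lincRNA-p21 GapmeR and 4.12 ± 0.682 with the control GapmeR in PE, and 2.43 ± 0.326 against 4.53 ± 0.970 in PBS (SD, n = 3 each).

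Adk spans 396 kb, and it is the only one of the 10 genes longer than 200 kb, with Entpd1 next at 129 kb. Genes of at least 200 kb and a mean of at least 50 were often lower with the lincRNA-p21 GapmeR. In PE, 404 of 620 such genes were called lower (65.2%), with a median log2 change of -0.55, against 8.99% of shorter genes. In PBS, 218 of 620 were called lower (35.2%), with a median of -0.31, against 3.71% of shorter genes. The shorter genes were graded by span. In PE, 327 of 1083 genes of 100 to 200 kb were called lower (median -0.23), 275 of 1781 of 50 to 100 kb (median -0.08) and 120 of 2892 under 10 kb (median 0.05). In PBS the counts lower in these bins were 147, 107 and 37. Adk fell further than most genes of at least 200 kb, since 11.6% of those had a lower log2 change in PE and 15.3% in PBS. These genes were not matched to Adk in span, as their median span was 296 kb. Their 10th percentile of log2 change was -1.24 in PE and -0.89 in PBS, below Adk in both. The part of gene span in the change of Adk was not tested. The genes most like Adk over the 12 libraries were Efr3a (r = 0.989) and Psmd5, a proteasome assembly factor (r = 0.989).

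**Figure D4:**
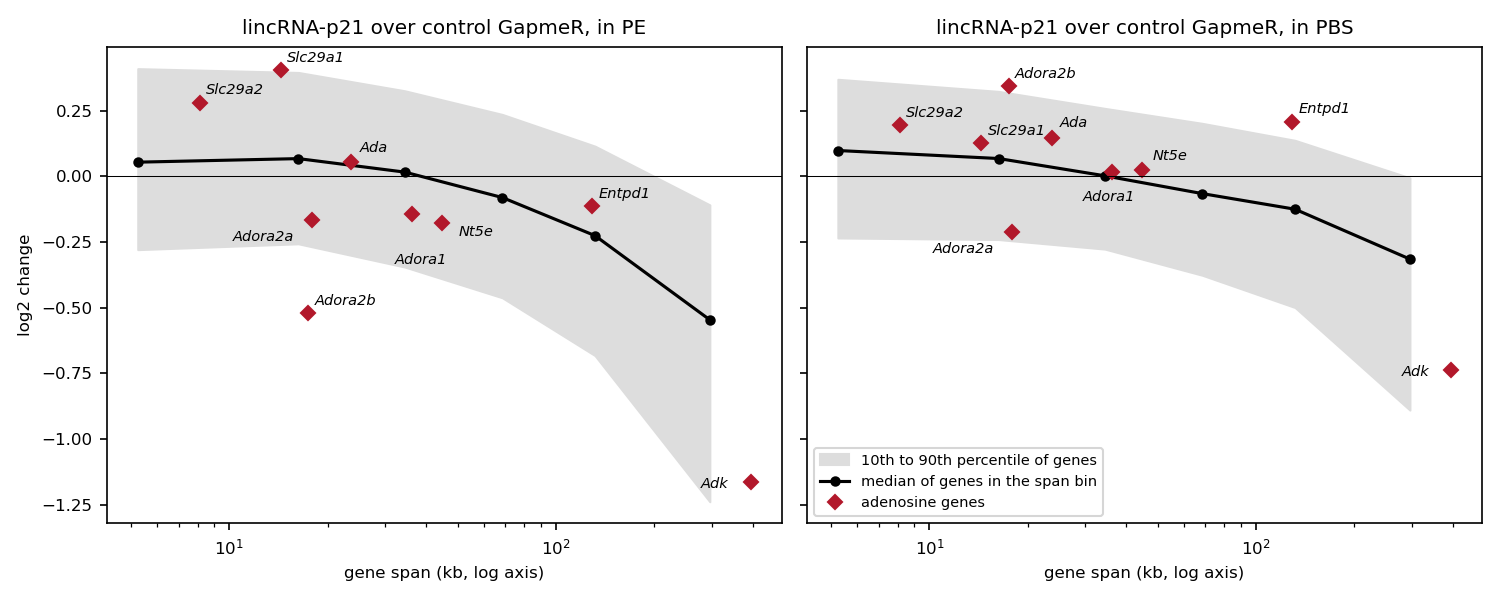
Log2 change with the lincRNA-p21 GapmeR (vertical axis) against gene span in kb (log axis), in PE (left) and PBS (right); the line joins the medians of genes in 6 span bins, the grey band runs between the 10th and 90th percentile, and diamonds are the 9 tested genes. Adk, at 396 kb, lies below the median of genes of at least 200 kb in both panels, at -1.16 in PE and -0.74 in PBS. The median span of those genes is 296 kb.

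Slc29a1 had 823, 856 and 847 normalised reads with the lincRNA-p21 GapmeR and 602, 681 and 627 with the control GapmeR in PE. All knockdown libraries were higher, by 0.40 ± 0.10 (log2, SE, limma adjusted p = 0.0095). Library values also did not overlap for 30.5% of all genes tested. Without replicate 1 of PE with the control GapmeR the change was 0.36 and not called (limma adjusted p = 0.053), and it was called in the other 11 fits that left out 1 library. In PBS it had 922, 1075 and 993 with the lincRNA-p21 GapmeR and 985, 851 and 901 with the control GapmeR, with overlap and a log2 change of 0.13 (95% interval -0.08 to 0.33). The difference between these effects was 0.28 (95% interval -0.01 to 0.57) and was not called (limma adjusted p = 0.53).

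The other transporter, Slc29a2, had 618, 608 and 574 with the lincRNA-p21 GapmeR and 499.8, 497 and 483 with the control GapmeR in PE. Its groups did not overlap, as for 30.5% of all genes, and its log2 change of 0.28 ± 0.12 was not called (SE, limma adjusted p = 0.14). It was called at 0.26 (limma adjusted p = 0.045) without the 3 libraries that stood apart, at 0.28 (limma adjusted p = 0.037) without replicate 2 of PBS with the lincRNA-p21 GapmeR, and at 0.28 (limma adjusted p = 0.048) in a fit of only the libraries compared. In PBS its log2 change was 0.19 (95% interval -0.05 to 0.44).

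None of the 3 tested receptors was called between the GapmeRs by limma, edgeR or DESeq2, and Adora2b in PE alone had an unadjusted p under 0.05. Adora1 differed by -0.14 (95% interval -0.38 to 0.10) in PE and by 0.02 (95% interval -0.22 to 0.26) in PBS. Without the 3 libraries that stood apart it was called lower in PE, at -0.26 (limma adjusted p = 0.020). Adora2b differed by -0.52 (95% interval -1.02 to -0.02, limma adjusted p = 0.19) in PE and by 0.34 (95% interval -0.16 to 0.84) in PBS. Adora2a differed by -0.17 in PE and -0.21 in PBS, each with an SE of 0.28. Of the surface enzymes, Nt5e differed by -0.18 ± 0.09 in PE (SE, limma adjusted p = 0.27), and Entpd1 by -0.11 ± 0.19 (SE, limma adjusted p = 0.79). Library values of Nt5e did not overlap, as for 30.5% of all genes tested.

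In the test of whether the PE response depended on the GapmeR, 0 of the 9 genes were called by limma, beside 0.055% of all genes. At an unadjusted p under 0.05 there were 2, Adora2b and Adk, and edgeR and DESeq2 also called 0.

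Marker lists were also compared between the GapmeRs in PE, where 4.57% of all genes were called higher, 7.14% lower and 11.7% in either direction. Of 8 cardiomyocyte markers 1 was called lower, Ryr2 at -0.42 ± 0.12 (log2 change, SE), and their sum was 686700 to 799930 with the lincRNA-p21 GapmeR and 850570 to 1145900 with the control GapmeR. Myh6 made up a large part of this sum, at a mean of 413020 with the lincRNA-p21 GapmeR and 604630 with the control GapmeR. Of 8 endothelial markers 2 were called lower, Flt1 at -0.53 ± 0.11 and Pecam1 at -0.48 ± 0.12. Leukocyte sums were 3258 to 3859.9 with the lincRNA-p21 GapmeR and 3442 to 3985 with the control GapmeR. Fibroblast sums were 29950 to 34179 with the lincRNA-p21 GapmeR and 36058 to 39824 with the control GapmeR, with Pdgfra called lower at -0.46 ± 0.09. Smooth muscle and pericyte sums were 6520.2 to 6989.8 with the lincRNA-p21 GapmeR and 8383 to 9483 with the control GapmeR, and epicardial sums 4121 to 4278 against 5203 to 5400.3, with 1 of 7 and 1 of 5 markers called lower. Mast cell sums differed the other way, at 655 to 784 with the lincRNA-p21 GapmeR and 345 to 420.1 with the control GapmeR. Of the 4 tested mast cell markers 1 was called higher, the protease Mcpt4 at 1.68 ± 0.17. Mcpt4 averaged 516 with the lincRNA-p21 GapmeR and 163 with the control GapmeR, while Kit averaged 190 and 210. The other tested markers were low, with Cpa3 at 1.07 and 0.721 and Cma1 at 6.07 and 3.93 in these groups. Fcer1a and Tpsb2 were too low to be tested. Fcer1a was at 0 in every group, and Tpsb2 averaged 0.331 with the lincRNA-p21 GapmeR and was at 0 with the control GapmeR.

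In PBS, cardiomyocyte sums were 516440 to 560160 with the lincRNA-p21 GapmeR and 636370 to 738210 with the control GapmeR. Myh6 alone averaged 252910 and 323170 in these groups. Of the 8 cardiomyocyte markers, 0 were called between the GapmeRs in PBS, beside 4.57% of all genes called in either direction. Mitochondrial genes held 4.33% to 7.55% of reads with the lincRNA-p21 GapmeR and 8.19% to 10.7% with the control GapmeR in PBS, without overlap. In PE their shares were 6.55% to 10.04% with the lincRNA-p21 GapmeR and 6.36% to 9.28% with the control GapmeR, which overlapped. The part of these shifts in the changes of Adk and Slc29a1 was not tested.

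Lists of other purine genes were compared for PE under the control GapmeR, where 12.6% of all genes tested were called higher, 12.8% lower and 25.4% in either direction. In de novo purine synthesis, which builds the purine ring, 8 of 13 tested genes were called higher and 2 lower, with a median log2 change of 0.39. Atic at 0.63 ± 0.09, Impdh2 at 0.62 ± 0.10 and Gart at 0.53 ± 0.11 rose, and the phosphoribosyl pyrophosphate synthetase Prps2 fell, at -1.03 ± 0.12 (log2 change, SE). Of 18 tested genes of purine deamination, salvage and degradation, 5 were higher and 3 lower. Among them were the AMP deaminase Ampd3 at 0.61 ± 0.10, the salvage enzyme Aprt at 0.72 ± 0.10, the S-adenosylhomocysteine hydrolase Ahcy at 0.45 ± 0.10 and the adenylate kinase Ak4 at -0.79 ± 0.13.

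A list of other surface enzymes held ectonucleotidases, phosphatases, the NAD-consuming enzymes Cd38 and Bst1 and the peptidase Dpp4. Of 10 tested, 5 were called lower with PE and 2 higher, with a median log2 change of -0.40, beside 12.8% and 12.6% of all genes. The largest changes among the 7 were in the phosphodiesterase family members Enpp2, which makes lysophosphatidic acid, at -1.78 ± 0.14, and Enpp3 at -1.46 ± 0.36, and in the ATPase Entpd2 at -1.63 ± 0.31 (log2 change, SE). Alkaline phosphatase Alpl, which can also make adenosine from AMP, was higher at 0.77 ± 0.13.

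Of 12 tested P2 receptors, which sense ATP and other nucleotides, 4 were lower and 1 higher, beside 12.8% and 12.6% of all genes. P2ry1 changed by -1.40 ± 0.18, P2ry14 by -1.08 ± 0.29, P2rx1 by -0.81 ± 0.29 and P2ry2 by 0.48 ± 0.13 (log2 change, SE). Among 7 channels that can release ATP, Panx2 was called, at -1.60 ± 0.23, a share below the 25.4% of all genes. Of 3 further nucleoside transporters, Slc29a4 was higher at 1.09 ± 0.28 and Slc29a3 lower at -0.57 ± 0.14, beside the same background.

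Lists downstream of the receptors had shares near or below the 25.4% of all genes called. Of 10 G protein subunits 2 were higher and 1 lower, of 9 adenylyl cyclases 1 was higher (Adcy8 at 1.03 ± 0.32) and 1 lower (Adcy1 at -0.83 ± 0.14), and of 15 genes for protein kinase A, its anchors and CREB 1 was higher (log2 change, SE). A list of 11 intracellular enzymes held 5′-nucleotidases, which make nucleosides from monophosphates, and diphosphatases of the Entpd family, which make monophosphates from diphosphates. In it 1 was higher (Nt5c3b at 0.53 ± 0.10) and 3 were lower, led by the diphosphatase Entpd5 at -0.99 ± 0.12, beside the same background.

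**Figure D5:**
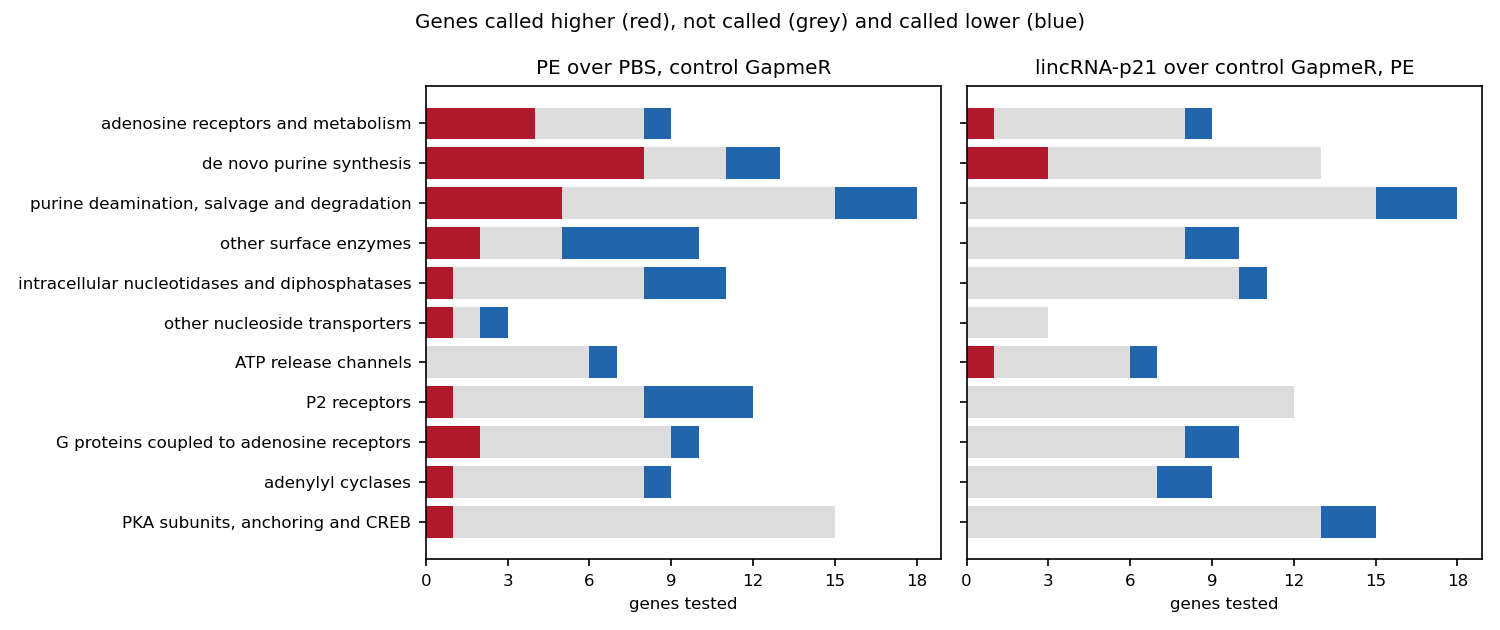
Number of tested genes (horizontal axes) called higher (red), not called (grey) and called lower (blue) in each pathway list, for PE over PBS with the control GapmeR (left) and the lincRNA-p21 over the control GapmeR in PE (right). De novo purine synthesis has 8 of 13 genes higher with PE, and 3 of 13 higher with the lincRNA-p21 GapmeR.

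With the lincRNA-p21 GapmeR in PE, 3 of 18 genes of purine deamination, salvage and degradation were called lower, beside 7.14% of all genes called lower and 11.7% called in either direction. They were xanthine dehydrogenase Xdh, at 506 ± 11.7 with the lincRNA-p21 GapmeR and 1108 ± 74.7 with the control GapmeR (SD, n = 3 each, log2 change -1.13 ± 0.10), the guanine deaminase Gda at -0.79 ± 0.20, and Ahcy at -0.44 ± 0.10. De novo synthesis had 3 of 13 genes higher, beside 4.57% of all genes, Impdh2 at 0.53 ± 0.10, Adsl at 0.38 ± 0.10 and Atic at 0.30 ± 0.09 (log2 change, SE). Of 9 adenylyl cyclases 2 were lower, beside 7.14% of all genes, among them Adcy5, a main cardiac form, at 1311 ± 135 with the lincRNA-p21 GapmeR and 3486 ± 257 with the control GapmeR (SD, n = 3 each, log2 change -1.41 ± 0.11). Adcy2 was the other, at -1.32 ± 0.29. Of 10 surface enzymes 2 were lower, beside the same background, Enpp1 at -0.72 ± 0.18 and Dpp4, the protein that anchors adenosine deaminase in humans, at -0.71 ± 0.16.

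In PBS, Xdh at -0.79 ± 0.10, Gda at -1.02 ± 0.20 and the deoxynucleoside kinase Dck at -0.67 ± 0.12 were called lower with the lincRNA-p21 GapmeR, which made 3 of 18 genes of that list, beside 3.21% of all genes called lower. Impdh2 was the 1 de novo gene called, at 0.52 ± 0.10. Adenylyl cyclases Adcy2 at -1.15 ± 0.29, Adcy5 at -0.97 ± 0.11 and Adcy1 at -0.64 ± 0.14 were called lower, 3 of 9 tested, beside the same 3.21% (log2 change, SE). Long genes were often lower with this GapmeR, as given for Adk. The part of gene span in the changes of these lists between the GapmeRs, in PE or in PBS, was not tested.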

How the data were processed

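RNA of 12 libraries was sequenced. Per the submitters' processing notes, the tools were STAR, SAMtools and featureCounts with GRCm38.p6. Tool versions, annotation and strandedness are not given in the sources used here. In the table, the authors deposited a signal per gene, which holds reads scaled by a library-specific size factor, since 100% of values per column were whole multiples of 1 step (tolerance 0.001). The table has 0 columns of no sample. Of 55416 gene IDs, 52083 matched GENCODE M21 without their version (35 with it), and the other 3333 hold 0.200% of the signal. Coordinates and exon lengths come from M21.

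For genes whose mean reached 1 (21799), log2(value + 1) was fitted with limma 3.58.1 (R 4.3.3, trended prior), with 4 group means over all 12 libraries. The 5 comparisons were tested two-sided, with p adjusted by Benjamini-Hochberg over all genes tested at 0.05. "Called" means an adjusted p under 0.05. Fold changes on this scale understate changes of low genes. Recovered reads went to edgeR 4.0.16 and DESeq2 1.42.0 as alternatives. Other alternatives were a pseudocount of 0.1, testing every gene, requiring CPM of 1 or more in 3 libraries, rescaling to the same total, only the libraries compared, a replicate block, no distant libraries, and each library left out. The fit was also run on simulated independent counts. That simulation held no libraries that stand apart, and its outcome is not used here.

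Text names all 10 genes, the lincRNA-p21 gene, up to 4 called genes of each other list per comparison with the largest change, up to 2 such markers of each cell type, genes whose exons overlap, and the 2 genes of mean at least 50 most like a called gene. Some other markers are named with their group means. The members and lists were chosen with earlier results of these data known.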

Additional observations from a re-analysis of the deposited data

How the results depend on the processing

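The 11 calls on adenosine genes were refitted 242 times under the alternatives, and 241 fits kept the call; Slc29a1 between the GapmeRs in PE lost it without replicate 1 of PE with the control GapmeR (limma adjusted p = 0.053). The 34 uncalled changes were refitted 739 times, of which 694 stayed uncalled in the same direction, 10 became called and 35 changed sign, and the cause was not tested.

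Rescaled to the same total, 5 adenosine genes were called for PE with the lincRNA-p21 GapmeR. On that scale the signs turned for Adora2a (-0.085) and Adk (-0.0791) with the control GapmeR, and for Adora2a (-0.025), Ada (-0.0263) and Slc29a2 (-0.0883) with the lincRNA-p21 GapmeR. The share of lower calls was 71.8% against 50.5% for PE with the control GapmeR, 69.3% against 51.1% for PE with the lincRNA-p21 GapmeR, 42.3% against 60.9% between the GapmeRs in PE, and 51.0% against 70.2% in PBS.

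Without the 3 distant libraries, 4 adenosine genes and 4672 genes in all were called between the GapmeRs in PE, Adora2a (0.0206) and Ada (-0.0255) turned sign there, 1865 genes were called in PBS, and 143 for the dependence of the PE response on the GapmeR. On recovered reads, edgeR with median-of-ratios factors called 5443 genes for PE with the control GapmeR, 2482 between the GapmeRs in PE and 1078 in PBS. A fit of only the libraries compared called 392 genes in PBS. DESeq2 called 124 genes for that dependence, against 12 by limma, and Adora2a turned sign in it (-0.0018 by DESeq2, -0.001 by edgeR with median-of-ratios factors).

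Leaving out 1 library gave 1671 to 3502 genes between the GapmeRs in PE, lowest without replicate 2 of PE with the lincRNA-p21 GapmeR, and 1 to 3 adenosine genes, lowest without replicate 1 of PE with the control GapmeR. It gave 510 to 1181 genes in PBS, lowest without replicate 3 of PBS with the control GapmeR, and 3 to 22 for the dependence. Log2 changes that turned sign ran from -0.25 to 0.33 (Adora2a, PE with the control GapmeR), -0.0129 to 0.30 (Adora2a) and -0.0764 to 0.19 (Slc29a2) for PE with the lincRNA-p21 GapmeR, -0.43 to 0.16 (Adora2a) and -0.0255 to 0.21 (Ada) between the GapmeRs in PE, and -0.0518 to 0.12 (Adora1) and -0.0267 to 0.0931 (Nt5e) in PBS. For the dependence they ran from -0.22 to 0.37 (Adora2a), -0.18 to 0.0648 (Ada) and -0.0438 to 0.22 (Slc29a2).

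The labels do not say whether replicate numbers pair the libraries. Residuals of same-numbered libraries correlated at -0.44 to 0.41 over 18 pairs, 4 of them over 0.1. This cannot decide the question, since libraries of different numbers were not compared in the same way. A fit with the replicate number as a block called 5171 genes for PE with the control GapmeR, 2269 between the GapmeRs in PE and 822 in PBS, and every call on an adenosine gene was the same. Low counts limit Adora2a and Adora3, and intervals over 3 libraries cover only the spread between these libraries.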
